A study of Mus musculus with 2 samples.

Results

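The miRNAs of the miR-23/27/24 clusters were examined in exosomes, the small vesicles that cells release, from mesenchymal stem cells of mouse bone marrow (BMSCs). The 9 members were taken by name from the miRNA array: mmu-miR-23a-3p, mmu-miR-27a-3p, mmu-miR-24-3p, mmu-miR-23b-3p and mmu-miR-27b-3p among the 3p arms, and mmu-miR-23a-5p, mmu-miR-27a-5p, mmu-miR-24-2-5p and mmu-miR-24-1-5p among the 5p arms. They are 9 of the 1881 mouse miRNAs on the array and 22 of its 4415 probes. The exosomes came from the medium of BMSCs of C57BL/6 mice, grown for 72 h either in normoxia or at 0.2% oxygen, in both cases with fetal calf serum that the study had depleted of exosomes. Each condition is 1 exosome preparation on 1 array, so no spread between cultures was measured and no test was run. The errors below are over replicate spots of a probe inside an array. Fewer vesicles and less of a miRNA per vesicle cannot be told apart in such RNA.

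Each of these miRNAs is cut from a short RNA hairpin whose stem holds a 5p and a 3p strand. One strand is usually loaded into an Argonaute protein and guides it to mRNAs through its seed, and the other is mostly degraded. Mammals carry a pair of such clusters. Mir23a, Mir27a and Mir24-2 are made from one primary transcript and Mir23b, Mir27b and Mir24-1 from another, and miR-24-3p is produced by both. In marrow stroma miR-27 is known as a repressor of adipogenesis through PPARγ, and the miR-23a cluster as a brake on osteoblast differentiation. In other cells miR-24 is known to repress cell cycle genes, and all 3 families have been listed among miRNAs induced by low oxygen, which is why their exosomal levels were compared here.

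The mature sequences are shown because the families are told apart by their seeds and the paralogs by very few bases. They are RefSeq sequences of the GRCm38.p6 build, matched by miRNA name for 8 of the 9 members and written 5′ to 3′ with the seed, bases 2 to 8, in capitals.
miR-23a-3p: aUCACAUUgccagggauuucc
miR-27a-3p: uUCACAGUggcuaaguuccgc
miR-27b-3p: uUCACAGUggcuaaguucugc
miR-24-3p: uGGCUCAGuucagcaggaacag
miR-23a-5p: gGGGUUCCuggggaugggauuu
miR-27a-5p: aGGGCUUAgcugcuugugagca
miR-24-2-5p: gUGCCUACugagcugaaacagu
miR-24-1-5p: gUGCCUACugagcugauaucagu

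miR-27a-3p and miR-27b-3p share the seed UCACAGU and differ by 1 substitution, C19U, counted from the 5′ end of miR-27a-3p. The seed of miR-23a-3p, UCACAUU, differs from it near its 3′ end, and the seed of miR-24-3p, GGCUCAG, is unrelated. The 5p arms of Mir24-1 and Mir24-2 share the seed UGCCUAC and their first 16 bases. Since 1 base separates the miR-27 paralogs, and the probe sequences were not used here, signals of miR-27a-3p and miR-27b-3p are uncertain as separate measurements; the same caution was kept for miR-23a-3p and miR-23b-3p. Of the 1608 miRNAs on the array with a matched mature sequence, 4 that are no members share a member's seed. All 4, namely miR-5124b, miR-6369, miR-6410 and miR-6413, carry that of miR-24-3p, and none of them was detected on either array.

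In the same build the Mir23a cluster lies at chr8:84208518-84208921 on the plus strand, a span of 404 bases between the protein-coding genes Nanos3 and Zswim4. The Mir23b cluster lies at chr13:63300484-63301275, also on the plus strand, and spans 792 bases inside the extent of Aopep, a gene for an aminopeptidase. Between the hairpins of the first cluster lie 79 and 56 bases, and between those of the second 154 and 423 bases. On the strand opposite each Mir24 hairpin is annotated a Mir3074 hairpin, and its miR-3074-5p is complementary to miR-24-3p over 20 bases.

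The state of the arrays bears on every value that follows. Spots well above background made up 9.96% of the miRNA spots in normoxia and 8.59% in hypoxia. The hypoxia array had the wider spot scatter, with a median coefficient of variation of 15.8% against 9.68%, and the scanner software placed that scatter and the labelling spike-ins of this array outside their ranges. Of 6 stromal marker miRNAs, 5 were detected on both arrays, and miR-145a-5p was detected on neither. None of 3 epithelial markers was detected. Of 6 blood cell markers, 3 were detected in normoxia (miR-451a, miR-144-3p and miR-223-3p) and 1 in hypoxia (miR-451a), and the summed signal of the brightest probe of each of the 6, with means below 0 taken as 0, was 506 in normoxia and 37.1 in hypoxia. miR-486a-5p, miR-142a-3p and miR-150-5p were detected on neither array. The liver miRNA miR-122-5p read 78.5 in normoxia and 7.04 in hypoxia and was detected in normoxia only.

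All 5 of the 3p arms gave detected signal in exosomes from both conditions, whereas the 5p arms were at or near background. How far the signals of miR-23b-3p and miR-27b-3p come from their paralogs was not tested. Detection required signal well above background, as the scanner software flags it, in over 50% of the spots of at least 1 probe. By this rule 6 of the 9 members were detected in normoxia, where 12.0% of all miRNAs were, and 5 in hypoxia, where 10.6% were. The 5 detected on both arrays were the 5 3p arms, against 9.57% of all miRNAs. Across the array 8.66% of the miRNAs named 3p and 14.7% of those named 5p were detected in normoxia, and 8.54% and 12.4% in hypoxia, so the order of the arms among the members was not that of the whole array.

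**Figure D1:**
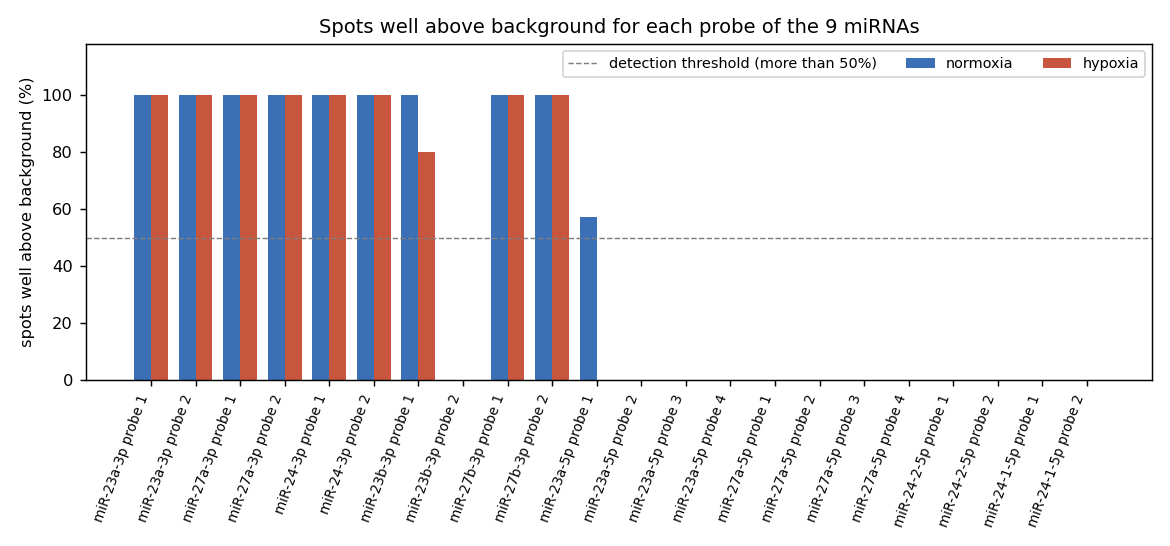
Percentage of replicate spots well above background (vertical axis) for each of the 22 probes of the 9 miRNAs, with normoxia in blue and hypoxia in red and the 50% detection threshold dashed. The 3p arms reach 100% on at least 1 probe in normoxia, and among the 5p arms a single probe of miR-23a-5p passes the threshold, at 57.1% in normoxia.

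The 5p arms had little or no signal. miR-23a-5p, the partner strand of miR-23a-3p, was the one 5p arm detected, and in normoxia only. The 7 spots of its brightest probe lay between 13.4 and 26.8 in normoxia, with a mean of 18.6 ± 5.24 (SD), and 4 of them were well above background. In hypoxia its 7 spots lay between −2.08 and 4.98, with a mean of 1.63 ± 2.61 (SD), and none was well above background. The normalized signal of this probe in normoxia, 15.7, was under the lowest detected normalized signal of the hypoxia array, 16.1, so no fold was given. Without normalization it was at least 1.37-fold lower in hypoxia, set against the lowest detected signal of 13.5 there. Its 3 other probes had no spot well above background on either array.

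For miR-27a-5p, miR-24-2-5p and miR-24-1-5p no spot of any probe was well above background. The brightest of the 4 probes of miR-27a-5p averaged −0.50 ± 4.25 (SD) over 6 spots in normoxia, and 0.99 ± 2.23 (SD) over 6 spots in hypoxia. That of miR-24-2-5p averaged 1.15 ± 2.87 and 0.70 ± 3.83 (SD, n = 15 spots each). These 3 arms have no fold here. The other strands of the same loci that are no members behaved alike. miR-23b-5p, miR-27b-5p, miR-3074-5p, miR-3074-1-3p and miR-3074-2-3p were not detected on either array, and the probes of miR-3074-5p, antisense to miR-24-3p, averaged −2.25 and −2.11 in normoxia and −2.32 and −2.79 in hypoxia.

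Signals of the 3p arms are described first as the scanner gave them, background-subtracted but not normalized between the arrays. The largest shift among the members with 2 measured probes was that of miR-24-3p, the strand made by both clusters. The 15 spots of its brighter probe ran from 3474 to 4351 in normoxia, with a median of 3998, and from 2228 to 3028 in hypoxia, with a median of 2861. Its second probe ran from 2912 to 3945 in normoxia and from 1868 to 2855 in hypoxia. On both probes every normoxia spot was above every hypoxia spot. The unnormalized log2 differences, hypoxia minus normoxia, were −0.51 ± 0.042 and −0.55 ± 0.057 (SE over spots).

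miR-23a-3p and miR-27a-3p, from the cluster on chromosome 8, moved much less. The 15 spots of the brighter miR-23a-3p probe ran from 3921 to 4875 in normoxia, with a median of 4358, and from 3005 to 4708 in hypoxia, with a median of 3997. Of the hypoxia spots 8 lay inside the normoxia range. The unnormalized log2 differences of its probes were −0.14 ± 0.055 and −0.13 ± 0.056 (SE over spots). The 14 spots of the brighter miR-27a-3p probe ran from 4324 to 5401 in normoxia, with a median of 4675, and from 3643 to 5247 in hypoxia, with a median of 4672. Here 11 of the hypoxia spots lay inside the normoxia range, and the unnormalized log2 differences were −0.064 ± 0.047 and 0.00029 ± 0.060 (SE over spots). The arrays thus overlapped for both of these strands and not for miR-24-3p. How many of all probes on the array separate as those of miR-24-3p do was not counted. Without normalization the median log2 difference of all 180 miRNAs detected on both arrays was −0.27.

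**Figure D2:**
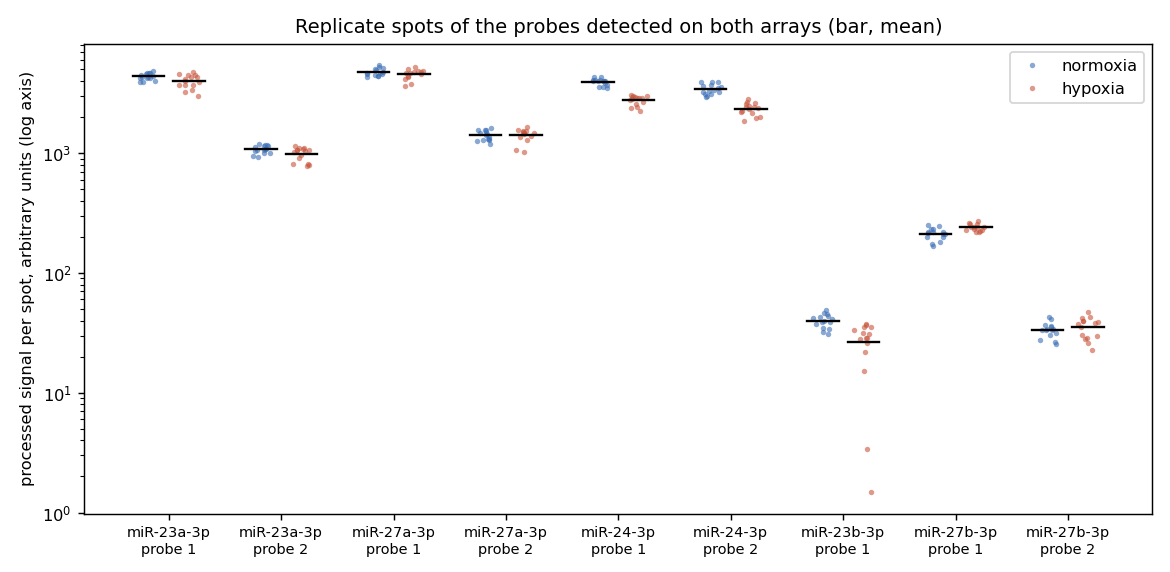
Processed signal of each replicate spot (vertical log axis, arbitrary units) for the 9 probes detected on both arrays, with normoxia in blue, hypoxia in red and the mean as a bar. The spots of miR-24-3p separate on both of its probes, those of the miR-23a-3p, miR-27a-3p and miR-27b-3p probes overlap, and 2 hypoxia spots of miR-23b-3p lie far below the rest; heights of different probes are not comparable.

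miR-27b-3p and miR-23b-3p come from the cluster on chromosome 13. The brighter miR-27b-3p probe ran from 168 to 252 in normoxia (median 217, n = 15 spots) and from 219 to 270 in hypoxia (median 241, n = 14 spots), and its second probe averaged 33.4 ± 4.89 and 35.0 ± 7.02 (SD, n = 15 spots each). The spot ranges overlapped on both probes, and the unnormalized log2 differences were 0.18 ± 0.050 and 0.069 ± 0.092 (SE over spots). miR-23b-3p was measured by 1 probe, whose 15 spots averaged 39.8 ± 5.31 (SD) in normoxia, against 26.3 ± 11.3 (SD) over 15 spots in hypoxia. In hypoxia its spots ran from 1.47 to 37.5 and 12 of 15 were well above background, and the unnormalized log2 difference was −0.60 ± 0.17 (SE over spots). Its other probe had no spot well above background on either array. miR-27b-3p was the one member with a higher unnormalized mean in hypoxia on both probes.

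Quantile normalization, the method that the study names, was then applied to the probe means, and each miRNA was given the average log2 difference of those of its probes that both arrays detected. After normalization miR-27b-3p was highest in hypoxia relative to normoxia, at 0.60 ± 0.053 (SE over spots), or 1.51-fold. miR-27a-3p was at 0.30 ± 0.038, or 1.24-fold, and miR-23a-3p at 0.21 ± 0.039, or 1.15-fold. miR-23b-3p was at −0.076 ± 0.17, within its spot error of 0, and miR-24-3p at −0.24 ± 0.035, or 0.85-fold. In this order miR-27a-3p lay 0.099 ± 0.055 above miR-23a-3p, and miR-23a-3p 0.28 ± 0.17 above miR-23b-3p, and miR-24-3p was at −0.16 ± 0.17 relative to miR-23b-3p. Each of these gaps was less than 2 SE over spots, and the gap between miR-27b-3p and miR-27a-3p was larger. This SE leaves out any error that normalization adds.

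None of the 5 members detected on both arrays passed 2-fold in either direction after quantile normalization. Of the 180 miRNAs detected on both arrays, 18.3% were at least 2-fold higher in hypoxia and 10.0% at least 2-fold lower, against 0 of 5 members each way. The median log2 difference of the 5 members was 0.21 and that of the 180 miRNAs 0.17. The members ran from −0.24 to 0.60, a range that held 38.9% of the 180, whose quartiles were −0.41 and 0.71. When the 75th percentile of all probes, most of them not detected, was used to scale the arrays, miR-27b-3p passed 2-fold, at 1.05.

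**Figure D3:**
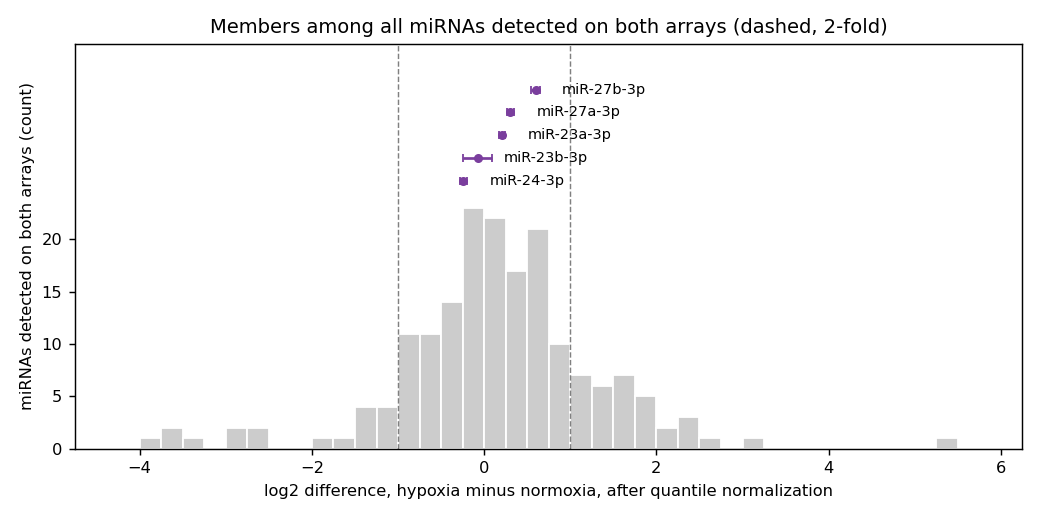
Histogram of the quantile-normalized log2 difference, hypoxia minus normoxia (horizontal axis), over the 180 miRNAs detected on both arrays (vertical axis, count), with the 5 members drawn above it as points with bars of 1 SE over spots. All 5 members lie between the dashed 2-fold lines, from −0.24 for miR-24-3p to 0.60 for miR-27b-3p.

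The sign of most members depended on how the arrays were scaled. Over 6 scalings the log2 difference of miR-23a-3p ran from −0.13 without normalization to 0.79 with the 75th percentile of all probes, and that of miR-27a-3p from −0.032 to 0.89. miR-24-3p ran from −0.53 to 0.40 and was below 0 in 5 of 6. miR-23b-3p ran from −0.60 to 0.33 and was also below 0 in 5 of 6. miR-27b-3p alone among the 5 kept 1 sign, from 0.12 to 1.05. The upper end of each range came from the 75th percentile of all probes. Since 12.0% of all miRNAs were detected in normoxia and 10.6% in hypoxia, that percentile lies among probes that were mostly not detected.

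The distance of a member from the median of all 180 miRNAs is the same under the 5 scalings by a single factor, no normalization among them, because such a factor moves both alike. It therefore had 2 values for each member, with and without quantile normalization. miR-27b-3p stood above that median by 0.43 with and 0.39 without quantile normalization, miR-27a-3p by 0.14 and 0.24, and miR-23a-3p by 0.038 and 0.14. miR-23b-3p stood below it, at −0.24 and −0.33, and miR-24-3p at −0.41 and −0.26. With the brightest probe alone both miR-23a-3p and miR-27a-3p were below the median, at −0.16. With the stricter filter that no spot of a probe be dim, miR-23a-3p was at −0.0012, and miR-23b-3p was at 0.11 without a filter on dim probes. miR-24-3p was below the median and miR-27b-3p above it under the other alternatives of spot averaging, probe choice, filter and background correction too.

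**Figure D4:**
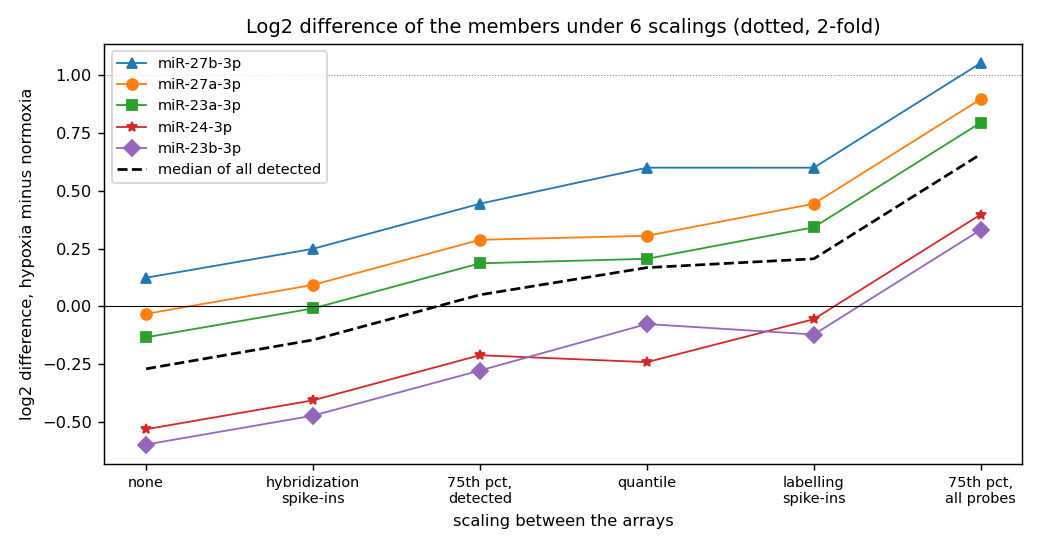
Log2 difference, hypoxia minus normoxia (vertical axis), of the 5 members under 6 scalings of the arrays (horizontal axis), with the median of all 180 miRNAs dashed and 2-fold dotted. The 5 scalings by a single factor shift all lines by the same amount, whereas quantile normalization changes their spacing, with miR-24-3p minus miR-23b-3p at −0.16 under it and 0.066 under the others.

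Comparing members with each other removes any single factor between the arrays. The log2 difference of miR-24-3p was lower than the mean of miR-23a-3p and miR-27a-3p, its partners in the primary transcript on chromosome 8, by −0.50 ± 0.045 after quantile normalization and by −0.45 ± 0.045 without it (SE over spots). Over the alternatives run it ranged from −0.51 to −0.20. The latter came from the brightest probe of each miRNA, which quantile normalization put at 0 for both partners. miR-24-3p is also made by Mir24-1, and the array does not separate the sources of the strand.

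The clusters as a whole differed by less than the spot error after quantile normalization. The mean of miR-23a-3p and miR-27a-3p minus that of miR-23b-3p and miR-27b-3p was −0.0062 ± 0.092 (SE over spots). It was 0.15 ± 0.092 without normalization and −0.22 with the brightest probes. Within the miR-27 family both paralogs were above 0 after normalization, and miR-27a-3p was below miR-27b-3p by −0.29 ± 0.065, or by −0.16 ± 0.065 without normalization. The SE leaves out any error that normalization adds. After normalization the probes of miR-27a-3p were at 0 and 0.61, and those of miR-27b-3p at 0.52 and 0.67. miR-23a-3p was above miR-23b-3p by 0.28 ± 0.17, less than 2 SE over spots, or by 0.46 ± 0.17 without normalization, a gap that rests on the dim probe of miR-23b-3p.

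Probes of the same miRNA show what quantile normalization did to these strands. Without it the probes of miR-23a-3p gave log2 differences 0.0066 apart and those of miR-27a-3p 0.064 apart. After it the brighter probe of each was at 0, since it held the same rank on both arrays and quantile normalization gives equal ranks equal values. The dimmer probes were at 0.41 ± 0.056 for miR-23a-3p and 0.61 ± 0.060 for miR-27a-3p (SE over spots). The probes of miR-24-3p lay 0.038 apart without normalization and 0.085 apart after it, and those of miR-27b-3p 0.11 and 0.15 apart. The normalized values of miR-23a-3p and miR-27a-3p are thus means of probes that differ by more than their spot error.

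**Figure D5:**
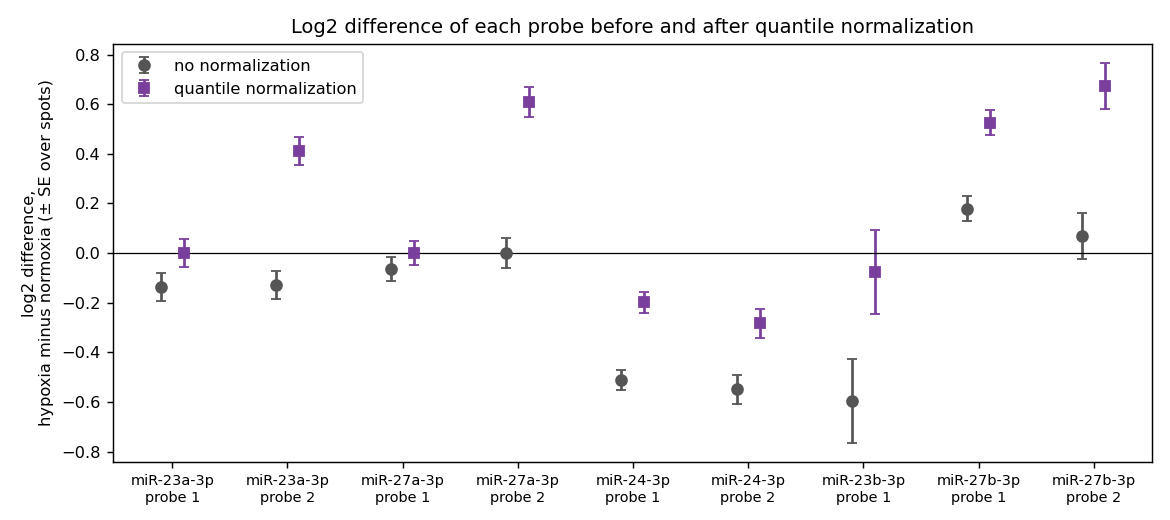
Log2 difference, hypoxia minus normoxia (vertical axis, bars of 1 SE over spots), of the 9 probes detected on both arrays, without normalization as grey circles and after quantile normalization as purple squares. Probe pairs of miR-23a-3p and miR-27a-3p nearly coincide without normalization and lie 0.41 and 0.61 apart after it.

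Among the 6 blood markers given above, the 3 detected in normoxia were lower in hypoxia. Of these markers only miR-451a was measured on both arrays. miR-451a, the erythroid miRNA that leads that list, read 448 in normoxia and 26.5 in hypoxia on its brightest probe, and after normalization its log2 difference was −3.66 ± 0.057 (SE over spots). Without normalization the median log2 difference of all 180 miRNAs detected on both arrays was −0.27. The members were at −0.60 for miR-23b-3p, −0.53 for miR-24-3p, −0.13 for miR-23a-3p, −0.032 for miR-27a-3p and 0.12 for miR-27b-3p. The part of blood or serum RNA in the members' differences was not tested.

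Other miRNAs described as raised by low oxygen were set beside the clusters. Of 8 such miRNAs from the miR-26, miR-103/107, miR-181 and miR-210 families, 3 were measured on both arrays, 1 of them at least 2-fold higher and none at least 2-fold lower, with a median log2 difference of 0.65. miR-210-3p, the best known miRNA induced by low oxygen, was the one past 2-fold, at 5.30 ± 0.035. miR-107-3p was at 0.65 ± 0.044 and miR-26a-5p at 0.61 ± 0.12 (SE over spots). miR-27b-3p was at 0.60, and the upper quartile of the 180 miRNAs detected on both arrays was 0.71. Before normalization the brightest probe of miR-107-3p read 389 in normoxia and 472 in hypoxia, and that of miR-26a-5p 21.0 and 20.3. miR-26b-5p and miR-103-3p were detected in normoxia only, and the 3 miR-181 members on neither array. The brightest probe of miR-26b-5p read 24.2 in normoxia and 14.1 in hypoxia, and that of miR-103-3p 20.1 and 15.1. The miRNAs outside the clusters whose log2 difference was nearest to the members' median were miR-148b-3p at 0.21, miR-140-3p at 0.22 and miR-3963 at 0.22, a likeness over 2 arrays only.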

How the data were processed

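Exosomal RNA was hybridised to Agilent mouse miRNA arrays with 1 colour, 1 array for normoxia and 1 for hypoxia. The study's methods name Agilent's miRNA labelling kit, whereas the labels describe reverse transcription of total RNA. The deposited intensity values are the authors' Feature Extraction 11.5.1.1 output, with background and spatial trend subtracted per spot and nothing scaled between arrays. The series' value table equals them spot by spot. Spots with any of 4 outlier flags were dropped (6 of 270 member spots in normoxia, 8 of 270 in hypoxia) and the rest averaged per probe. Probe means were quantile-normalized and compared on the log2 scale. SE is over spots before normalization, also where it stands beside a normalized value. Where 1 array alone detected a miRNA, a bound against the lowest detected signal was computed. Python 3.11.15, pandas 2.3.3, R 4.3.3 and limma 3.58.1 (normexp, offset 50) were used. The code was checked on simulated arrays with known folds and a single factor between them. Its tolerance for quantile normalization was as wide as the members' differences, so the check does not bear on those. All members were to be named, with the other strands of their hairpins, a low-oxygen list and the 3 miRNAs nearest in log2 difference; members and lists were chosen with earlier results of these data known. Position on the slide and condition cannot be told apart. The number of arrays limits the precision.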

Additional observations from a re-analysis of the deposited data

How the results depend on the processing

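No paired analysis was possible because a single array stands for each condition. Nothing was tested, and no replicate could be left out. The contrast of 5p with 3p arms could not be given, as no 5p arm was detected on both arrays. Using the value table changed no number by construction, since its values are the scanner's. The count of members at least 2-fold higher became 1 when the 75th percentile of all probes set the scale (miR-27b-3p). The count at least 2-fold lower became 1 without a filter on dim probes, which admits miR-23a-5p at background. The median of the members was 0.79 with the 75th percentile of all probes, −0.13 without normalization, −0.0085 with the hybridization spike-ins, 0.41 with outlier spots kept and 0 with the brightest probe. The contrast of the miR-23 and miR-27 3p arms between the clusters changed sign. It was 0.15 under each of the 5 scalings by a single factor, 0.053 under normexp, 0.0056 with the median of all spots and 0.16 with outlier spots kept. The gap of miR-24-3p to its partners was −0.20 with the brightest probe, which held equal ranks and so stood at 0 for both partners. Without normalization these probes were at −0.51 for miR-24-3p, −0.14 for miR-23a-3p and −0.064 for miR-27a-3p. Single members changed sign as follows. Without normalization miR-23a-3p was at −0.13 and miR-27a-3p at −0.032, and with the hybridization spike-ins miR-23a-3p was at −0.0085. miR-24-3p was at 0.40 with the 75th percentile of all probes and 0.061 with outlier spots kept. miR-23b-3p was at 0.33 with the 75th percentile of all probes, 0.034 under normexp, 0.14 without a filter and 0.043 with the software's summed signal. miR-27a-3p minus miR-23a-3p was −0.030 with the summed signal, and miR-24-3p minus miR-23b-3p was 0.066 under each scaling by a single factor and 0.098 with outlier spots kept. Apart from the equal ranks of the brightest probes, the cause of these changes was not tested. Signal limits the 5p arms and miR-23b-3p: probes were detected down to 14.5 in normoxia and 13.5 in hypoxia.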

Other observations

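Both arrays detected several probes of 115 miRNAs. For these the log2 differences of a miRNA's probes lay a median of 0.15 apart after quantile normalization and 0.092 apart without it. The 4 members of this kind had medians of 0.28 and 0.051. By the scanner software's own call the same members were detected as by the rule used above, 6 in normoxia and 5 in hypoxia, with miR-23a-5p again detected in normoxia only.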
